A study of Rattus norvegicus with 6 samples.

Results

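The genes followed here are 10 that are known for axon growth and regeneration, namely Gap43, Basp1, Stmn2, Stmn4, Sprr1a, Sox11, Klf6, Gadd45a, Flrt3 and Ecel1. They were taken by gene symbol from the platform's annotation of the array, and for each gene the row with the highest mean over the 6 arrays was used. All 10 were measured, out of 20530 named genes in the series. The lumbar cord of 6 Sprague-Dawley rats was measured with 1 Affymetrix array per rat. Lidocaine, the local anaesthetic that closes sodium channels of nerve fibres, had been injected intrathecally in 3 rats (20 µL at 10%), while 3 blank control rats had received nothing. Cord from L2 to L6 was frozen on day 4 after behavioural tests. Since the controls were not injected, the drug and the injection cannot be told apart, and neither age nor sex of the rats is stated.

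When an axon is cut or damaged, its neuron can switch on a set of genes that rebuild the growth cone, the motile tip of a growing axon. Transcription factors and stress genes such as Sox11, Klf6 and Gadd45a act early in this programme, and membrane and cytoskeletal proteins such as Gap43, Basp1 and the stathmins carry it out at the axon tip. Peripheral sensory and motor neurons mount it strongly after nerve injury, whereas neurons whose axons stay within the central nervous system mount it weakly. Several of these genes, Klf6 and Gadd45a above all, are not neuron-specific and are also induced in glia and immune cells under stress.

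Values are log2 RMA values, so a difference of 1 is a doubling, and each can be compared between arrays but not between genes. Arrays correlated at 0.994 to 0.996 within groups and at 0.987 to 0.992 between groups over all transcript clusters. The median of the negative-control rows lay between 2.65 and 2.81 on the 6 arrays and their 95th percentile between 5.79 and 6.06. Sprr1a, Sox11 and Klf6 lay below that percentile on all 6 arrays, Gadd45a on the 3 control arrays, and Ecel1 on all arrays but that of control rat 2. Flrt3 lay below it in lidocaine rat 1, and no gene was left out of the fit for being dim. The median of the named genes lay at 4.61 to 4.66 on lidocaine arrays and 4.56 to 4.59 on control arrays. Of all genes, 23.7% passed limma's adjusted p of 0.05, with rises making up 40.9% of the calls, or 30.1% of them after median centring of the arrays. The number of arrays limits the precision.

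Of the 10 growth genes, 5 passed the threshold, against the 23.7% of all genes. Sprr1a, Sox11, Klf6 and Gadd45a rose, where 9.70% of all genes rose, and Stmn2 fell, where 14.0% of all genes fell. Gap43, Basp1, Stmn4, Flrt3 and Ecel1 did not pass. The share of all genes includes many dim ones. With genes below the negative-control 95th percentile left out, 2 of 7 members passed, beside 2556 of 4996 genes. Of these members, Gadd45a stayed in only through its lidocaine values. The 3 lidocaine values lay above all 3 control values for the same 4 genes that rose, against 15.9% of all genes, and below them for Stmn2 and Stmn4, against 24.6%. That makes 6 of 10 members without overlap, beside 40.5% of all genes. The median log2 change over the 10 was 0.08, and over all genes it was -0.01. Because the members were put together with results of these arrays known, these shares describe the 10 genes and test nothing about them as a group.

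**Figure D1:**
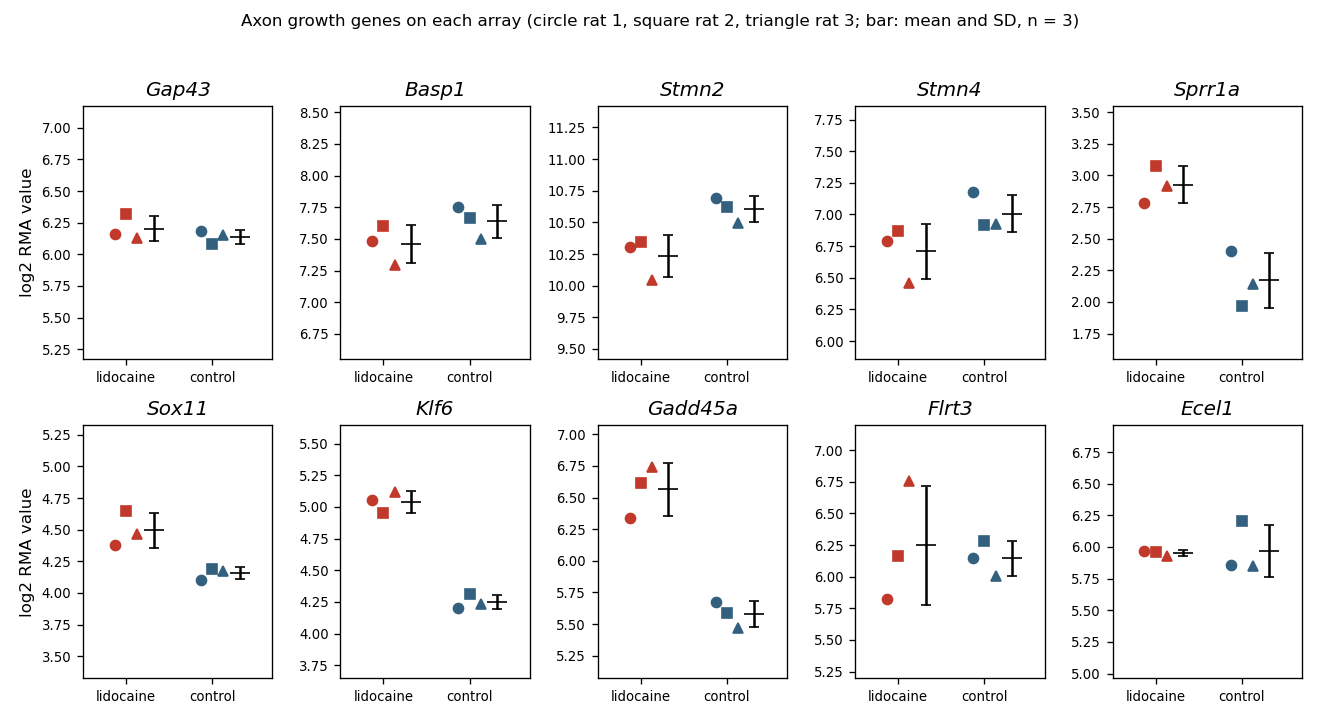
The log2 RMA value of each of the 10 genes (vertical axes, each spanning the same range) is shown for the 3 lidocaine rats in red and the 3 control rats in blue, with 1 symbol per rat and the mean and SD (n = 3) beside them. Sprr1a, Sox11, Klf6 and Gadd45a lie wholly above the controls, Stmn2 and Stmn4 wholly below them, and Gap43, Basp1, Flrt3 and Ecel1 overlap.

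Gadd45a, a gene of the DNA damage and growth arrest response, had the largest rise of the 10. It read 6.34, 6.62 and 6.74 in the lidocaine rats and 5.68, 5.59 and 5.47 in the control rats. The lowest lidocaine value therefore stood well clear of the highest control value. The log2 change was 0.99 ± 0.11 (SE, n = 3 per group), which is 1.98-fold, with a 95% interval of 1.66 to 2.36-fold and an adjusted p of 0.00122. Both of its relatives rose as well, Gadd45b by 0.52 ± 0.08 and Gadd45g by 0.91 ± 0.16 on the log2 scale (SE, adjusted p = 0.00491 and 0.00715).

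Klf6, a zinc finger transcription factor that promotes axon growth in zebrafish retinal neurons, read 5.06, 4.95 and 5.12 in lidocaine rats. The control rats read 4.20, 4.31 and 4.24. These groups were tight and far apart, and Klf6 had the smallest p of the 10 genes. It rose 1.73-fold (log2 change 0.79 ± 0.07, SE, 95% interval 1.55 to 1.94-fold, adjusted p = 0.000424). Of the 6 Klf relatives that were listed, which are not the whole family, Klf2, Klf4 and Klf10 rose, with log2 changes of 0.54, 0.48 and 0.40. Klf5, Klf7 and Klf9 did not pass, at 0.36, 0.05 and -0.20, although Klf5 passed without lidocaine rat 1 (adjusted p = 0.0186; 0.0186 to 0.389 over its alternatives). The Klf changes thus covered both Klf4, known to restrain axon growth in mouse retinal ganglion cells, and growth-promoting Klf6, while growth-promoting Klf7 had an interval of -0.12 to 0.22.

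Sox11, a transcription factor of immature and injured neurons, read 4.38, 4.64 and 4.46 in lidocaine rats and 4.10, 4.19 and 4.18 in control rats. The gap between the groups was smaller than for Klf6 or Gadd45a. The rise was 1.26-fold (log2 change 0.34 ± 0.08, SE, 95% interval 1.11 to 1.44-fold, adjusted p = 0.0207). Without any 1 of the 3 control rats the call was lost, at adjusted p 0.0567 to 0.0638, and over all alternatives its adjusted p lay between 0.0122 and 0.0638. Its relatives Sox4 and Sox12 did not pass, with log2 changes of 0.55 ± 0.22 and -0.04 ± 0.09 (SE). Sox4 passed without lidocaine rat 1 and with the replicate numbers as a block (adjusted p 0.00896 to 0.281 over its alternatives). For Sox4 the lidocaine values of 5.10, 5.70 and 6.11 were widely spread, against 4.95, 5.07 and 5.25 in control rats.

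Sprr1a, a small proline-rich protein of skin that axotomised neurons switch on, was near background. Its values were 2.78, 3.08 and 2.91 in lidocaine rats and 2.40, 1.97 and 2.14 in control rats. All 3 control values lay below the negative-control median of their own arrays, and so did that of lidocaine rat 1, whose array had a median of 2.81. The groups did not overlap, and the fitted log2 change was 0.75 ± 0.12 (SE, adjusted p = 0.00525). Set against the mean negative-control median of the control arrays, 2.71, the lidocaine mean of 2.93 was 1.16-fold higher. The mean median of the lidocaine arrays themselves was 2.77, so this ratio is no lower bound for a rise of Sprr1a.

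Gap43, a calmodulin-binding phosphoprotein of the growth cone membrane and the classic marker of regrowing axons, did not change past the threshold. It read 6.16, 6.32 and 6.13 in lidocaine rats and 6.19, 6.08 and 6.16 in control rats, and the groups overlapped. The log2 change was 0.06 ± 0.07 (SE) at an adjusted p of 0.599, and the 95% interval of 0.93 to 1.17-fold bounds what these arrays allow. Neurogranin, Nrgn, which shares the calmodulin-binding motif of Gap43 but belongs to dendrites, fell by 0.67 ± 0.12 on the log2 scale (SE, adjusted p = 0.00802).

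Basp1, a membrane-bound growth cone protein with functions like those of Gap43, read 7.49, 7.60 and 7.30 in lidocaine rats. The control rats read 7.75, 7.67 and 7.50. Lidocaine rat 2 lay above control rat 3, so the groups overlapped, and the log2 change of -0.18 ± 0.10 (SE, 95% interval 0.75 to 1.04-fold) did not pass (adjusted p = 0.251). The annotation gave Basp1 a second, dimmer row whose means were 4.20 in lidocaine rats and 4.14 in control rats, so the rows did not move the same way. Marcksl1, another membrane-bound protein kinase C substrate, had a log2 change of -0.21 ± 0.09 (SE, adjusted p = 0.165), and it passed without lidocaine rat 3 (adjusted p 0.0256 to 0.529 over its alternatives).

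The stathmins bind tubulin and let microtubules turn over in the growth cone. Stmn2, the neuronal stathmin also called SCG10, read 10.31, 10.35 and 10.05 in lidocaine rats, against 10.69, 10.62 and 10.50 in control rats. All lidocaine values were lower, with lidocaine rat 3 the lowest. Stmn2 was 1.29-fold lower, with a log2 change of -0.37 ± 0.10 (SE) and an adjusted p of 0.0274. This call was lost without control rat 1, control rat 2 or lidocaine rat 3 and under quantile normalization (adjusted p = 0.0803, 0.0874, 0.0518 and 0.107), and its adjusted p over all alternatives lay between 0.0119 and 0.107. Stmn4 read 6.79, 6.87 and 6.46 in lidocaine rats and 7.17, 6.92 and 6.92 in control rats, again all lower and lowest in lidocaine rat 3. Its log2 change of -0.30 ± 0.12 (SE, 95% interval 0.67 to 0.99-fold) did not pass over all genes (adjusted p = 0.124).

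Stmn3 and Stmn1, the remaining stathmins, both fell, by 0.53 ± 0.12 and by 0.27 ± 0.06 on the log2 scale (SE, adjusted p = 0.0168 and 0.0196). All 4 stathmins therefore had negative changes, 3 of which passed. The fall of Stmn3 was not called without control rat 1 or 2, and that of Stmn1 was not called when any of rats 1 and 2 of either group was left out, nor under quantile normalization or with the replicate numbers as a block. The adjusted p of Stmn3 over its alternatives lay between 0.0083 and 0.0652 and that of Stmn1 between 0.00786 and 0.0749.

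Flrt3, a leucine-rich adhesion protein of the cell surface that binds fibroblast growth factor and Unc5 receptors, had the widest spread of the 10. It read 5.82, 6.16 and 6.76 in lidocaine rats and 6.15, 6.28 and 6.01 in control rats. Lidocaine rat 1 was the lowest array and lidocaine rat 3 the highest, and the log2 change of 0.10 ± 0.21 (SE, adjusted p = 0.786) had an interval of 0.76 to 1.503-fold. Without lidocaine rat 3 the change was -0.155. The relatives moved apart, with Flrt1 lower by 0.42 ± 0.06 (SE, adjusted p = 0.00294) and Flrt2 higher by 0.32 ± 0.08 on the log2 scale (adjusted p = 0.025). The Flrt2 call was lost under median centring and when any single rat other than lidocaine rat 2 was left out (adjusted p over its alternatives 0.0136 to 0.0758).

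Ecel1, a membrane metalloprotease induced in injured neurons, read 5.97, 5.96 and 5.93 in lidocaine rats. The control rats read 5.86, 6.21 and 5.85. The lidocaine values fell inside the control range, and the log2 change was -0.02 ± 0.10 (SE, 95% interval 0.84 to 1.16-fold, adjusted p = 0.92). Its sign turned under quantile normalization, with array weights and without control rat 2. The related endothelin-converting enzymes moved apart, since Ece1 rose by 0.57 ± 0.06 and Ece2 fell by 0.37 ± 0.07 on the log2 scale (SE, adjusted p = 0.00108 and 0.00879). The Ece2 call was lost when its rows were averaged (adjusted p = 0.574; 0.00384 to 0.574 over its alternatives).

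Among the 18 relatives that were measured there were 7 rises and 5 falls, and 6 missed the threshold, at a median log2 change of 0.18, beside 9.70% of all genes that rose and 14.0% that fell. With genes below the negative-control 95th percentile left out, 7 relatives remained, with 1 rise and 3 falls. Of the 4996 genes that remained, 702 rose and 1854 fell, so most rises among the relatives were in dim genes. The plot of members and relatives sets each gene beside its listed relatives.

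**Figure D2:**
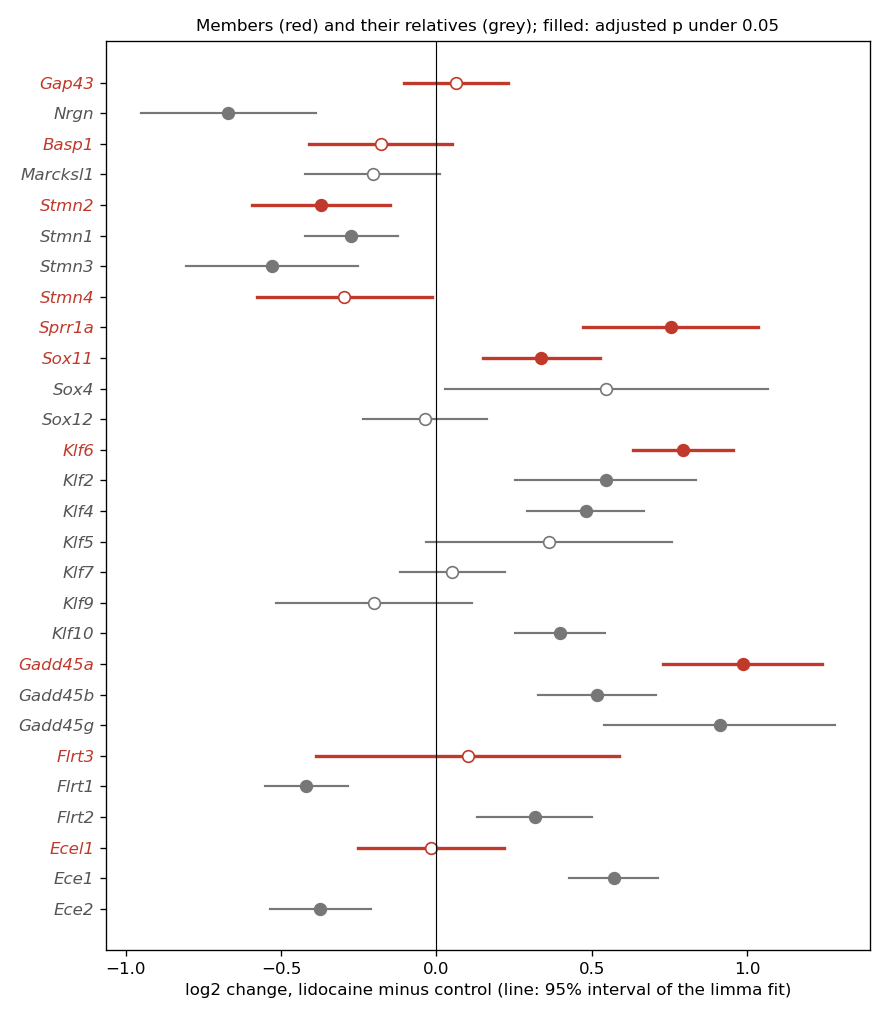
Points give the log2 change (lidocaine minus control) and lines its 95% interval from the limma fit, for the 10 members in red and 18 relatives in grey, with filled points for an adjusted p under 0.05. The 3 Gadd45 genes lie to the right of 0, the 4 stathmins lie to its left, and the Flrt, Klf and endothelin-converting enzyme families fall on both sides.

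The promoters of the genes that rose, and of Flrt3, are shown because 4 of these 5 share an 8-base word. RefSeq's promoter table of the rat assembly GRCr8 held 7 of the 10 genes, and the 250 bases before each gene's start were read 5′ to 3′. Gap43, Stmn2 and Stmn4 were not among the 7. Capitals mark matches to the AP-1 motif TGANTCA and to TGACATCA, which differs by 1 letter from the cyclic AMP response element TGACGTCA, on either strand (TGATGTCA is TGACATCA read on the other strand).
Sprr1a, chr2:180752626-180752875, minus strand: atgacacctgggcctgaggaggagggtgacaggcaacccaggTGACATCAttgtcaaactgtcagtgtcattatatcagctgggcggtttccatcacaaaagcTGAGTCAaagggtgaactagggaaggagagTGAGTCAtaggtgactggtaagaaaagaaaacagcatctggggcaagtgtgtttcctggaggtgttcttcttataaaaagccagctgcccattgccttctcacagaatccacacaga
Sox11, chr6:49738795-49739044, minus strand: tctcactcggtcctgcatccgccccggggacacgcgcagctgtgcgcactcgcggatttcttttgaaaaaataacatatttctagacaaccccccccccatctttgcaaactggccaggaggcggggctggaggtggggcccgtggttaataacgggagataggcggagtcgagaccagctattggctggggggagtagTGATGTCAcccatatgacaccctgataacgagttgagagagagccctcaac
Klf6, chr17:69458479-69458728, minus strand: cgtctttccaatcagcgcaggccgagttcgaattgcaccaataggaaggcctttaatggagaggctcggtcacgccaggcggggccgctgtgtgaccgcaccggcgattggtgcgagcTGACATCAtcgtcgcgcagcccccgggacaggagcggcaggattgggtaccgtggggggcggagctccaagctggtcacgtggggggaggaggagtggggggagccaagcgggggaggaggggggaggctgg
Gadd45a, chr4:97486800-97487049, minus strand: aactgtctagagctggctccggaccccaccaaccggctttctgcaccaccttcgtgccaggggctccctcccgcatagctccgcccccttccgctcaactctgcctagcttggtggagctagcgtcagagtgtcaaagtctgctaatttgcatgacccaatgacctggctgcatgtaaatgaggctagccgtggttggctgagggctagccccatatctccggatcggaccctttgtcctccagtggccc
Flrt3, chr3:148461406-148461655, minus strand: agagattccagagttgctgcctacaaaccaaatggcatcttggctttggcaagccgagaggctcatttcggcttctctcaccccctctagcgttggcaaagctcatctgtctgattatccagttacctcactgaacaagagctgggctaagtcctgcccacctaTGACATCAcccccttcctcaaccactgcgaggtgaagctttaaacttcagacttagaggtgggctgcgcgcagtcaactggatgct

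TGACATCA was found in the promoters of Sprr1a, Sox11, Klf6 and Flrt3, at 208, 51, 132 and 86 bases before the start, counted from the first base of the match. Those are 4 of 7 members, beside 3.75% of 27457 rat promoters of the same length. The word was picked after the promoters had been read, so the share is a description. AP-1 sites bind Jun and Fos proteins, and Sprr1a held TGAGTCA at 147 and at 117 bases before its start, while none of the other 6 members with a promoter in the table held the motif, which 6.36% of promoters hold. TGACGTCA, found in 1.7% of promoters, and the STAT motif TTCNNNGAA, found in 7.52%, were in 0 of the 7. The TATA box TATAAA was in Sprr1a alone, 46 bases before the start, against 13.1% of promoters. The GC box GGGCGG was in 5 of 7 (32.4% of promoters) and CCAAT in 3 of 7 (34.3%). The TGACATCA and AP-1 matches overlapped no other match, whereas 1 pair of GC boxes in Basp1 overlapped. Among the matches, TGACATCA was present in 3 genes that rose and in Flrt3, which did not pass, and absent in Gadd45a, which rose most.

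**Figure D3:**
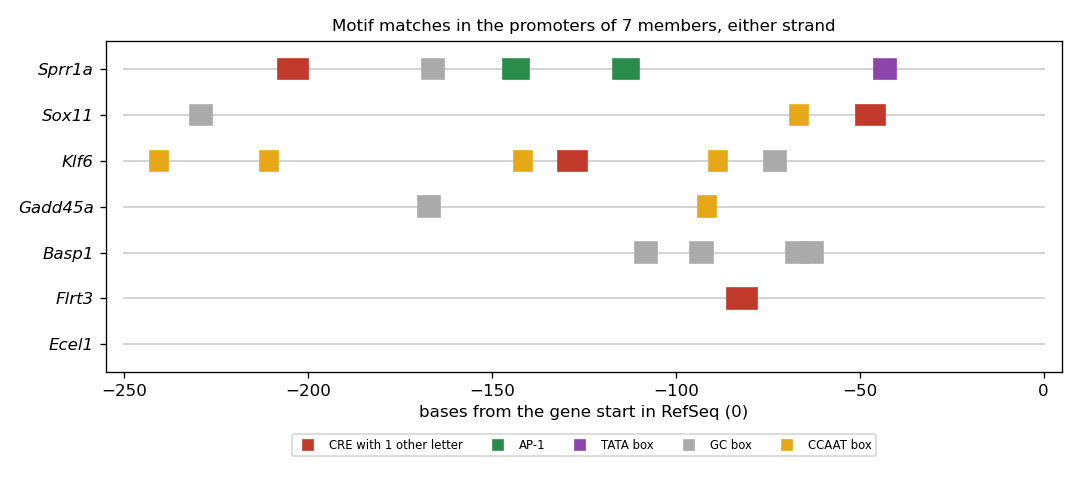
Boxes mark motif matches on either strand along the 250 bases before the gene start (horizontal axis, bases from the start at 0) for the 7 members with a promoter in the table, the 4 that rose first. The CRE-like word, in red, lies at a different distance in each of Sprr1a, Sox11, Klf6 and Flrt3, and the AP-1 matches, in green, are in Sprr1a alone.

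In bulk tissue, fewer neurons, less RNA per neuron and a larger share of RNA from other cells cannot be told apart. The level of neuron markers moved with the treatment. Of 13 measured neuron markers 0 rose and 11 fell, beside 9.70% and 14.0% of all genes, with a median log2 change of -0.46. Their mean level was 7.95 to 8.30 on lidocaine arrays and 8.57 to 8.63 on control arrays. Lidocaine rat 3, lowest for Stmn2, Stmn4 and Basp1, was also lowest for these markers. Each growth gene was therefore also expressed as its log2 value minus the neuron marker mean of the same array.

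On that scale Stmn2 differed by 0.07 between lidocaine and control arrays and Stmn4 by 0.15, and both overlapped between groups (exact permutation test, two-sided, p = 0.2 and 0.3). Basp1 differed by 0.27, Ecel1 by 0.43 and Gap43 by 0.51, each with all lidocaine values above the control values (exact permutation p = 0.1 in each, the smallest that 3 against 3 can give). Flrt3 differed by 0.54 and overlapped (exact permutation p = 0.3). The 10 members were tested in this way without adjustment, and none can reach 0.05. Gap43 stood at -2.14, -1.91 and -1.82 in lidocaine rats and -2.43, -2.55 and -2.41 in control rats. These differences have to be read against the whole array, since the median gene differed by 0.44 on this scale, with 78.9% of genes above without overlap and 1.41% below. Gap43 and Ecel1 thus lay close to the median gene, Basp1 below it, and Stmn2 and Stmn4 close to the neuron markers. Klf6 at 1.24, Gadd45a at 1.43 and Sox11 at 0.78 lay above the median gene, each without overlap between the groups. Sprr1a is drawn on this scale but not read on it, since its control values were at background.

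**Figure D4:**
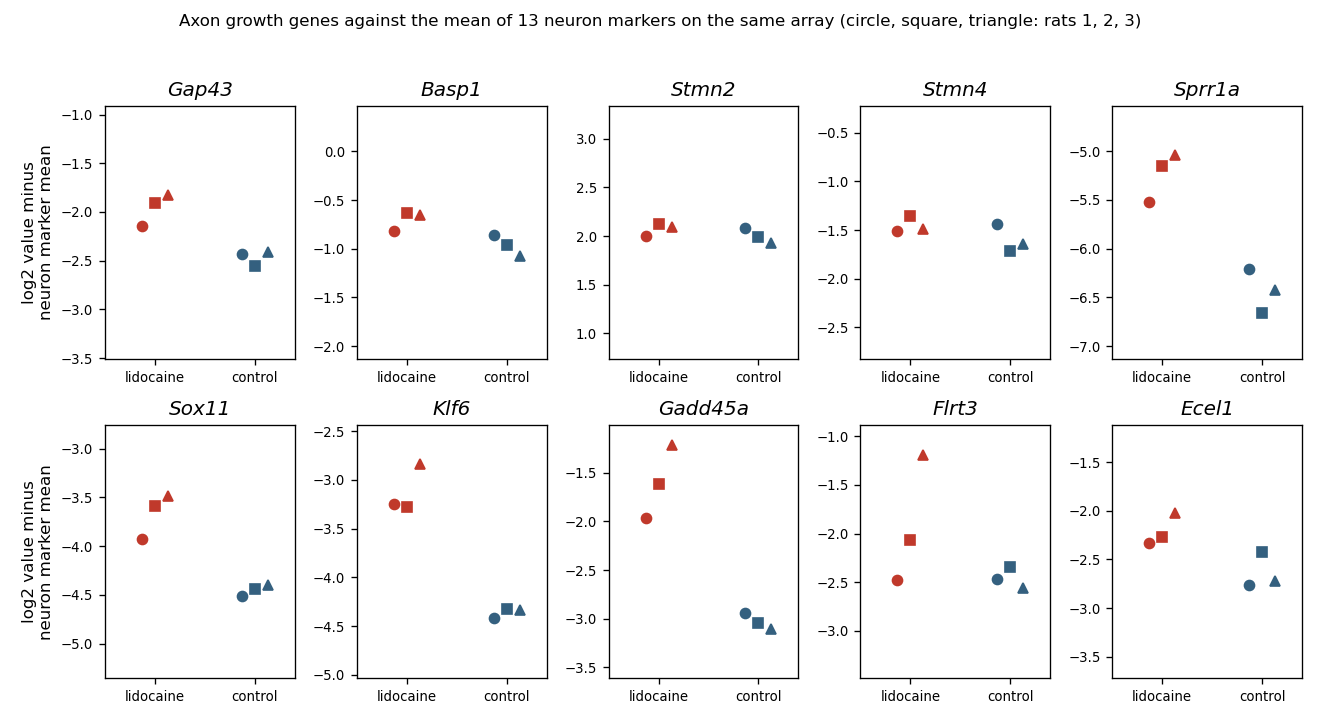
Each value is the gene's log2 value minus the mean of 13 neuron markers on the same array, in lidocaine rats (red) and control rats (blue), 1 symbol per rat. Stmn2 and Stmn4 overlap between the groups, while Gap43 lies higher in all 3 lidocaine rats, with a difference of 0.51 beside 0.44 for the median gene. The panel of Sprr1a is not read, since its control values were at background.

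Markers of other cells moved too, and their counts stand beside 9.70% of all genes that rose and 14.0% that fell. All 14 microglia and macrophage markers rose, at a mean level of 6.995 to 7.07 on lidocaine arrays and 5.29 to 5.37 on control arrays. All 10 reactive astrocyte markers and all 9 markers of dividing cells rose as well, with median log2 changes of 1.75 and 1.48. Neutrophil markers rose in 6 of 8 cases and fibroblast or meningeal markers in 4 of 10, with 1 fibroblast marker lower. Oligodendrocyte markers fell in 5 of 8 cases and markers of resting astrocytes in 5 of 7, with 0 rises in both lists, while endothelial markers gave 1 rise and 1 fall of 8. The part of these cells in the rises of Klf6, Gadd45a, Sox11 and Sprr1a was not tested. Of 11 markers of sensory neurons, the cells of the dorsal root ganglion, 0 passed. Their mean level was 3.98 to 4.24 on lidocaine arrays and 4.05 to 4.10 on control arrays, with Scn11a and Mrgprd below the negative-control median in both groups. Motor neuron markers fell in 5 of 10 cases, including Chat (log2 change -0.58, adjusted p = 0.0112), and 1 rose, the protease gene Mmp9, which immune cells also make. Chat and Mmp9 were named after their values were seen, and Prph and Isl1 are in both the sensory and the motor neuron lists.

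Schwann cell markers, which come with nerve roots, showed no common shift, with 1 of 8 higher, 1 lower and 6 not past (9.70% and 14.0% of all genes rose and fell). Their mean level was 7.97, 8.02 and 8.63 on lidocaine arrays 1 to 3, and 8.02, 8.54 and 8.17 on control arrays. The array with the highest Schwann cell level in each group, lidocaine rat 3 and control rat 2, was also the highest for Flrt3. The lidocaine rats had the same order in both. Control rat 3, however, had a higher Schwann cell level than control rat 1 but a lower Flrt3 value (6.01 against 6.15). Lidocaine rat 3 was also the highest of its group for fibroblast or meningeal markers (7.57) and for markers of dividing cells (5.79). Whether root tissue has a part in the spread of Flrt3 was not tested.

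Among the other genes of the regeneration programme, calls in the transcription factors and the injury-induced effectors were rises, and the growth cone and cytoskeleton genes held 4 rises among 15 calls. The counts that follow stand beside 9.70% of all genes that rose and 14.0% that fell, so that most calls over all genes were falls as well, and no test compared the lists. The 14 measured transcription factors gave 8 rises and 0 falls, 6 missed the threshold, and the median log2 change was 0.52. Klf7 is in this list and among the relatives. With genes below the negative-control 95th percentile left out, 6 factors remained and 4 of them rose, beside 702 rises among 4996 genes. Cebpd, an inflammatory and injury-induced factor, rose by 1.92 ± 0.13, Fosl1, an AP-1 subunit, by 1.12 ± 0.13, Stat3, the mediator of gp130 cytokines, by 0.83 ± 0.08 and Myc by 0.83 ± 0.09 (SE, n = 3 per group, adjusted p from 0.000172 to 0.00163). Atf3 and Jun, the partners best known from axotomised neurons and chosen here after their values were seen, rose by 0.94 ± 0.15 and 0.73 ± 0.14 (SE, adjusted p = 0.00562 and 0.0107).

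The 25 injury-induced effectors gave 13 rises and 0 falls, 12 missed the threshold, and the median was 0.53. With genes below the negative-control 95th percentile left out, 9 effectors remained and 6 of them rose, beside 702 rises among 4996 genes. Under 6 of the 14 alternatives, quantile normalization, median centring and the block among them, the list also held 1 fall, that of the neurotensin gene Nts. Annexin 1, Anxa1, rose by 2.08 ± 0.10, the adhesion receptor Cd44 by 1.60 ± 0.08, the growth factor Tgfb1 by 1.41 ± 0.15 and Csf1, a growth factor of microglia, by 0.53 ± 0.06 (SE, adjusted p from 3.75e-05 to 0.00121). Which cells of the cord gave these rises, or those of the transcription factors, was not tested. Cd44 is also in the list of reactive astrocyte markers. Ngfr, a rise whose call was lost in 5 of 14 alternatives, is also in that of Schwann cell markers. Among the neuropeptide genes of the list, Npy had a log2 change of -0.06 ± 0.13, Gal -0.12 ± 0.16 and Vip 0.27 ± 0.11 (SE, adjusted p = 0.772, 0.645 and 0.121), and none of these passed. Adcyap1 (0.03) and Nts (-0.33, adjusted p = 0.0527) did not pass either, whereas the neuropeptide precursor gene Vgf rose by 0.25 ± 0.06 (SE, adjusted p = 0.0262). The Vgf call was lost in 7 of 13 alternatives, among them leaving out any 1 control rat (adjusted p 0.0133 to 0.0782 over the alternatives). These neuropeptide genes were chosen after their values were seen.

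The 28 growth cone and cytoskeleton genes gave 4 rises and 11 falls, 13 missed the threshold, and the median was -0.19. Stmn1, Stmn3 and Marcksl1 are in this list and were counted among the relatives as well. Dpysl5, a collapsin response mediator, fell by 0.52 ± 0.07, the microtubule proteins Mapt and Dcx fell by 0.53 ± 0.07 and by 0.44 ± 0.07, and the tubulin Tubb6, which is not confined to neurons, rose by 0.65 ± 0.09 (SE, adjusted p from 0.00241 to 0.00458). Without control rat 1, 2 or 3 the list held 9 calls in each case rather than 15. The 17 growth-inhibiting genes gave 3 rises and 8 falls, 6 missed the threshold, and the median was -0.21. Of these, Klf4 and Klf9 are also among the relatives and Mag is also among the oligodendrocyte markers. The cytokine signalling inhibitor Socs3 rose by 1.57 ± 0.20 and the scar proteoglycan neurocan, Ncan, by 0.81 ± 0.08, whereas the proteoglycan Bcan fell by 0.75 ± 0.11 and the guidance ligand Sema3a by 0.52 ± 0.07 (SE, adjusted p from 0.000573 to 0.00337). The plot of the gene lists sets the 10 members beside them.

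**Figure D5:**
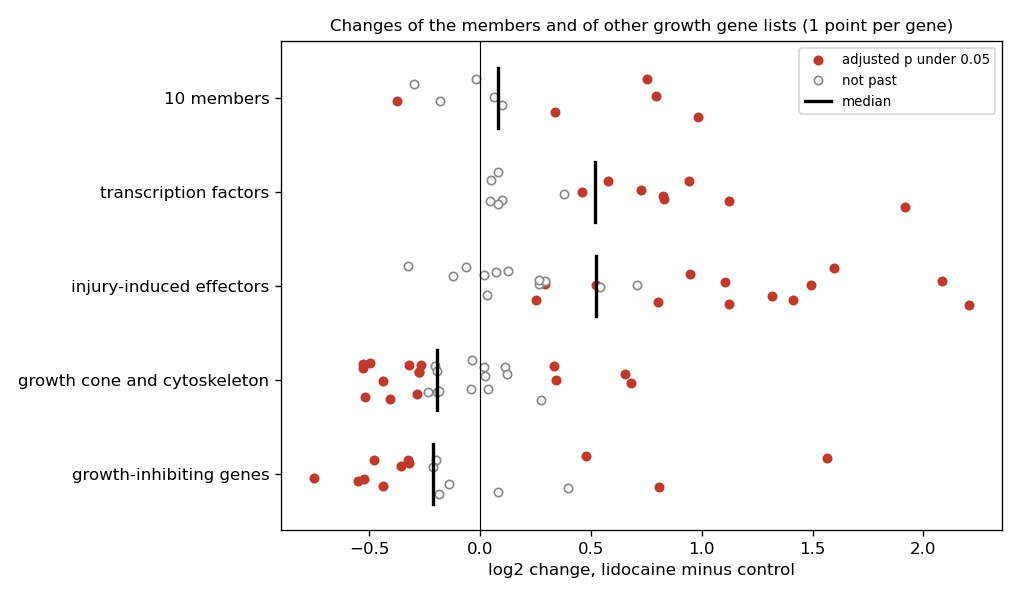
Each point is the log2 change of 1 gene (horizontal axis, lidocaine minus control) in the members or in 4 other growth gene lists, filled where the adjusted p was under 0.05, with a bar at each list's median. The transcription factors and effectors lie mostly to the right of 0, with medians of 0.52 and 0.53, and the growth cone and growth-inhibiting genes mostly to its left, with medians of -0.19 and -0.21.

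For each member that passed, the 3 genes with the most similar pattern over the 6 arrays were found by root mean square distance after each gene's mean was subtracted. Stmn2 had the closest, the secreted factor Vwc2 at 0.00986 log2 units, then Pebp1 at 0.0218 and the proton pump subunit Atp6v1e1 at 0.0234. Klf6 was nearest to Stom, Tgif1 and Tent5a (0.0305, 0.0321 and 0.0438). Gadd45a was nearest to the mitotic gene Ube2c, to Unc93b1 and to Ms4a6b (0.0521, 0.0586 and 0.0633). Sprr1a was nearest to Ppp1r14b, Gprc5a and Fosl2 (0.0456, 0.0556 and 0.0669), and Sox11 to Epcam and the ribosomal protein loci Rps27l3 and Rpl23al1 (0.0363, 0.037 and 0.0375). Epcam and Rpl23al1 lay below the negative-control median on all 6 arrays, so their patterns are those of background signal. The control values of Sprr1a were at background too. A gene near a called member has a similar group difference by the way it was found, so nearness alone shows no link between them.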

How the data were processed

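RNA from the lumbar cord of 3 lidocaine and 3 control rats was measured on 1 Affymetrix array each, grouped by sample title. The deposited values are log2 summaries made with RMA, per the submitters' processing notes. RMA makes probe distributions equal across arrays, and changes of dim genes may come out too small. The array model, software version and genome build were not given in the sources used here. Of 63789 transcript clusters, 21560 had 1 gene in the platform annotation, 471 several and 41758 none. Symbols were updated through gene identifiers in RefSeq's GRCr8 table (20304 found, 1 changed), and the brightest cluster per gene was kept (20530 genes).

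The group difference was fitted per gene by lmFit and eBayes (limma 3.58.1, R 4.3.3) and adjusted by Benjamini-Hochberg over all genes, with a threshold of 0.05. Intervals are those of single genes. A gene is called at background where its group mean lay below that group's mean negative-control median (2.77 for lidocaine, 2.71 for control). The labels give no batch. Members and gene lists were chosen with earlier results of these data known. List genes named by rule are the members, their relatives and up to 4 called genes with the smallest p per list. Atf3, Jun and the neuropeptide genes were named outside this rule after their values were seen. Ngfr and Mag were named because they are also in a list of cell markers. Older symbols were sought through synonyms, and Marcks, Smad1, Tubb3, Fabp7, Nrp1, Cdkn1a and some other listed genes and markers were not analysed here.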

Additional observations from a re-analysis of the deposited data

How the results depend on the processing

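The counts of calls and the changes of members, relatives and growth gene lists were recomputed under 14 alternatives, and those of cell markers, the values minus neuron markers, the nearest genes and the promoters were not. Over the 136 log2 changes of members that these gave, 125 kept their direction and side of the threshold, 7 lost the call (3 of Sox11 and 4 of Stmn2, given above) and 4 turned sign. The sign turned for Ecel1 under quantile normalization (0.044), array weights (0.060) and without control rat 2 (0.10, with -0.080 to 0.10 over the rats left out), and for Flrt3 without lidocaine rat 3 (-0.155, with -0.155 to 0.31 over the rats left out), none of which passed. Klf6, Gadd45a and Sprr1a kept their calls in the alternatives that held them (13, 14 and 12), of which the 95th percentile filter below says nothing about Gadd45a, with log2 changes of 0.75 to 0.84, 0.90 to 1.10 and 0.65 to 0.87. Leaving out 1 rat at a time gave 3 to 5 members called, 3 without control rat 1 or 2, and 2754 to 4335 genes called, with 2754 without control rat 2 and 2906 without control rat 3. With genes below the negative-control 95th percentile left out, 7 members were tested and 2 called, and 2556 of 4996 genes, since Klf6, Sox11 and Sprr1a are dimmer than this level. Of the 2, Gadd45a passed that filter only through its lidocaine values. Sprr1a also fell below the negative-control median filter. The labels do not say that equal replicate numbers pair the rats. Deviations of arrays with equal numbers correlated at -0.17, -0.09 and 0.14, which cannot decide it, since unequal numbers were not compared. With the replicate block, 5 members and 4005 genes were called, and the growth cone list held 9 calls rather than 15. Signal near background limits what can be said of Sprr1a.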
